A study of Mus musculus with 18 samples.

Results

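Immediate early genes are the first genes a cell transcribes after a stimulus. Kinase cascades act on transcription factors that already sit in the cell, such as SRF with its ternary complex partners and CREB, so that the transcripts rise before any new protein is made, and most of them decay quickly. In the brain they are best known as markers of recent neuronal firing, and many are also switched on in glia and immune cells by cytokines and bacterial products. The genes described here were 10 rows of the count matrix chosen by symbol, namely Fos, Fosb, Fosl2, Jun, Junb, Egr1, Egr2, Arc, Npas4 and Nr4a1, of 36172 genes in all. All 10 members passed the filter on low counts, with over 20 normalised counts in each of the 17 libraries, among 14803 genes tested.

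The libraries came from brains of Cx3cr1-Cre/Ert2+; NuTRAP+ mice of about 3 months, heterozygous for both alleles. In these mice the Cx3cr1 promoter drives a Cre that tamoxifen activates, and Cre turns on an EGFP-tagged ribosomal protein and a labelled nuclear membrane protein. All animals, controls included, carried both alleles and received tamoxifen 3 to 4 weeks before injection. A single intraperitoneal dose of 5 mg/kg LPS, a cell wall component of Gram-negative bacteria, or of PBS vehicle was given 24 h before 1 hemisected half-brain was homogenised. A share of the cleared homogenate served as input, and an anti-GFP antibody captured tagged ribosomes from the rest to give the positive fraction, a method known as translating ribosome affinity purification. Of 18 libraries from 9 animals, the input library of LPS animal 271 held only 1252 counts and was left out. This left 4 libraries in each of Input PBS, Input LPS and Positive PBS and 5 in Positive LPS, with 22968939 to 35123345 counts per library. The PBS animals were 2 females (268 and 506) and 2 males (272 and 273), and the LPS animals were 4 females (266, 270, 271 and 507) and 1 male (267).

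The positive fraction was checked against cell type markers, given as the summed normalised count of each list. The 8 microglia markers summed to between 182258 and 224682 in Positive PBS and to between 9916 and 12707 in Input PBS, so the labelled enrichment was present. The 8 neuron markers were not depleted, with sums of 202553 to 230540 in Positive PBS and 190270 to 198630 in Input PBS. In PBS animals 4 of the 8 were called higher in the positive fraction than in input and none lower, against 3113 higher and 2785 lower of the 14803 genes tested. Their log2 differences ran from -0.09 for Snap25 to 0.87 for Gad1. Neuron sums were 152374 to 211362 in Positive LPS and 171334 to 190345 in Input LPS. After LPS 3 of the 8 neuron markers were called lower in the positive fraction, against 14.9% of all genes tested, and none in input, against 5.26%. None of the 8 neuron markers was at 0 in any group. The cell type that a member's counts came from therefore cannot be told apart in either fraction, nor can fewer cells of a type be told apart from less RNA per cell.

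The members share a compact gene structure. In the longest GENCODE transcript with a RefSeq accession they had 1 to 8 exons, with a median of 3.5 against 9 over the 13360 tested genes with a model, and all 10 spanned less of the genome than the median tested gene (23071 bases). Jun and Junb have a single exon. In mm10 coordinates as deposited, Fos lies at chr12:85473901-85477270 on the plus strand, Fosb at chr7:19302696-19310045 on the minus strand and Fosl2 at chr5:32136472-32157839 on the plus strand. Jun lies at chr4:95049036-95052222 and Junb at chr8:84976909-84978748, both on the minus strand. Egr2 lies at chr10:67537869-67542188 and Nr4a1 at chr15:101266846-101274794, both on the plus strand, whereas Arc at chr15:74669081-74672570 and Npas4 at chr19:4984355-4989971 are on the minus strand. Egr1 lies on chromosome 18.

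Promoter windows of RefSeq (GRCm38.p6, the same build as mm10) were matched for 8 members by symbol, and not for Arc and Egr1. The 250 bases before the transcription start were searched on both strands for the cAMP response element TGACGTCA, its half-site TGACG, the AP-1 site TGANTCA, the EGR site GCGNGGGCG, the NR4A monomer site AAAGGTCA and the CArG box that SRF binds. The half-site TGACG is contained in the whole element. These 8 members have 12 windows, since Egr2 has 5 and the other 7 have 1 each. The half-site was found in 5 of the 7 members with a single window, against 17.8% of 32851 promoter windows of that length, and Jun and Fosl2 lacked it. The EGR site was found in 3 of these 7 (Fosl2, Fosb and Nr4a1), against 4.70% of windows, and the CArG box in none, against 1.47%. For Egr2 the half-site was found in 3 of the 5 windows and the CArG box in 4. The whole element, the AP-1 site and the NR4A site were found in none of the 12 windows. The 7 single windows are shown so that members with and without the half-site can be compared. Whether the half-site has a part in how the members differed between libraries was not tested. Each window reads 5′ to 3′ on the strand of the gene, and capitals mark the half-site on either strand.

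Fos, chr12:85473640-85473889, plus strand: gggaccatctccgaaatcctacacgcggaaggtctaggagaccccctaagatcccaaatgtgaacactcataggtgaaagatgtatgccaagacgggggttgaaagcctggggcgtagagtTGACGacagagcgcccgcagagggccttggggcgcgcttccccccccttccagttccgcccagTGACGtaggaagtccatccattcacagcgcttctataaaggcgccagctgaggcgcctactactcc
Nr4a1, chr15:101266596-101266845, plus strand: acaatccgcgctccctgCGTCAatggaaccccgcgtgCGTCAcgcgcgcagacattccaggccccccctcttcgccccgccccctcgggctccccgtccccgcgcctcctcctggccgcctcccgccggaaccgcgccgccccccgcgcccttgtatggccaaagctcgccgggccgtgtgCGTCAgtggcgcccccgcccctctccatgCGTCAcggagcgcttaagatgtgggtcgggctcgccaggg
Npas4, chr19:4989972-4990221, minus strand: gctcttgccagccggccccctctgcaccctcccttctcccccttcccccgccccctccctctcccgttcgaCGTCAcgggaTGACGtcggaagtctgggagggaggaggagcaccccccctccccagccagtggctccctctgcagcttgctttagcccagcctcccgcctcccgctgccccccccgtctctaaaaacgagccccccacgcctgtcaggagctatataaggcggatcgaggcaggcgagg
Fosb, chr7:19310046-19310295, minus strand: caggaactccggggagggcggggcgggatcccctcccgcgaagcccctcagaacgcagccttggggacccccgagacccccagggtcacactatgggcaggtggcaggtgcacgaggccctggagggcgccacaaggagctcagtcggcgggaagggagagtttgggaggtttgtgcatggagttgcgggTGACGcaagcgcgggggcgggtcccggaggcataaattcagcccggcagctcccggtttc
Junb, chr8:84978749-84978998, minus strand: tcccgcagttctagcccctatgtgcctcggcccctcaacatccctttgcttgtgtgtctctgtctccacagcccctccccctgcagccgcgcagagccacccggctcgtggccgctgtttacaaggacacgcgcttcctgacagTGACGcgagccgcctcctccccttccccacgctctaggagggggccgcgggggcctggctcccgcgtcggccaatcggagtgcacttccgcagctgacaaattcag
Fosl2, chr5:32136222-32136471, plus strand: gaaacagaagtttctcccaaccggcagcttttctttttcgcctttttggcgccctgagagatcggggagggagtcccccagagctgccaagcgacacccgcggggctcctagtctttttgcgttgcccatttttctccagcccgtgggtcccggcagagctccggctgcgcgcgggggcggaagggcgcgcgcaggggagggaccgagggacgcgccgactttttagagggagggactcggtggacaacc
Jun, chr4:95052223-95052472, minus strand: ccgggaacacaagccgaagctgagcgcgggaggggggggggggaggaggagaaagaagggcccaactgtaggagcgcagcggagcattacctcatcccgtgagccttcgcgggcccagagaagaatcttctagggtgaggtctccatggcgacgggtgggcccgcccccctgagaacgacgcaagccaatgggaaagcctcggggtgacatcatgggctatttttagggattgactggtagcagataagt

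The most upstream base of the half-site lay 129 and 66 bases before the start in Fos, 60 in Fosb and 106 in Junb. Nr4a1 held 4 half-sites, beginning 233, 213, 69 and 40 bases before the start, and Npas4 held a pair at 179 and 169. Matches of letters are a description of these windows, and binding was not measured.

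To order the members by abundance, normalised counts were divided by transcript length in kb. In Input PBS the order was Egr1 (2177 ± 439 normalised counts per kb, SD, n = 4), Arc (1243 ± 386), Junb (964 ± 410), Nr4a1 (900 ± 230), Jun (706 ± 16.8), Fos (424 ± 237), Fosl2 (217 ± 34.4), Fosb (186 ± 35.2), Npas4 (101 ± 27.5) and Egr2 (58.3 ± 31.1). The lowest Egr1 library (1768) lay above the highest Arc library (1611), and the lowest Jun library (681) lay above the highest Fos library (630). From Arc to Jun the ranges overlapped between each pair of neighbours, as did those of Fos with Fosl2, of Fosl2 with Fosb and of Npas4 with Egr2. In Positive LPS the order opened with Junb (2025 ± 386 per kb, n = 5), Egr1 (983 ± 226) and Jun (910 ± 78.6), where the lowest Junb library (1529) stood clear of the highest Egr1 library (1244) and the ranges of Egr1 and Jun overlapped. Egr2 was last in every group, with 20.5 ± 11.1 per kb in Positive LPS.

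**Figure D1:**
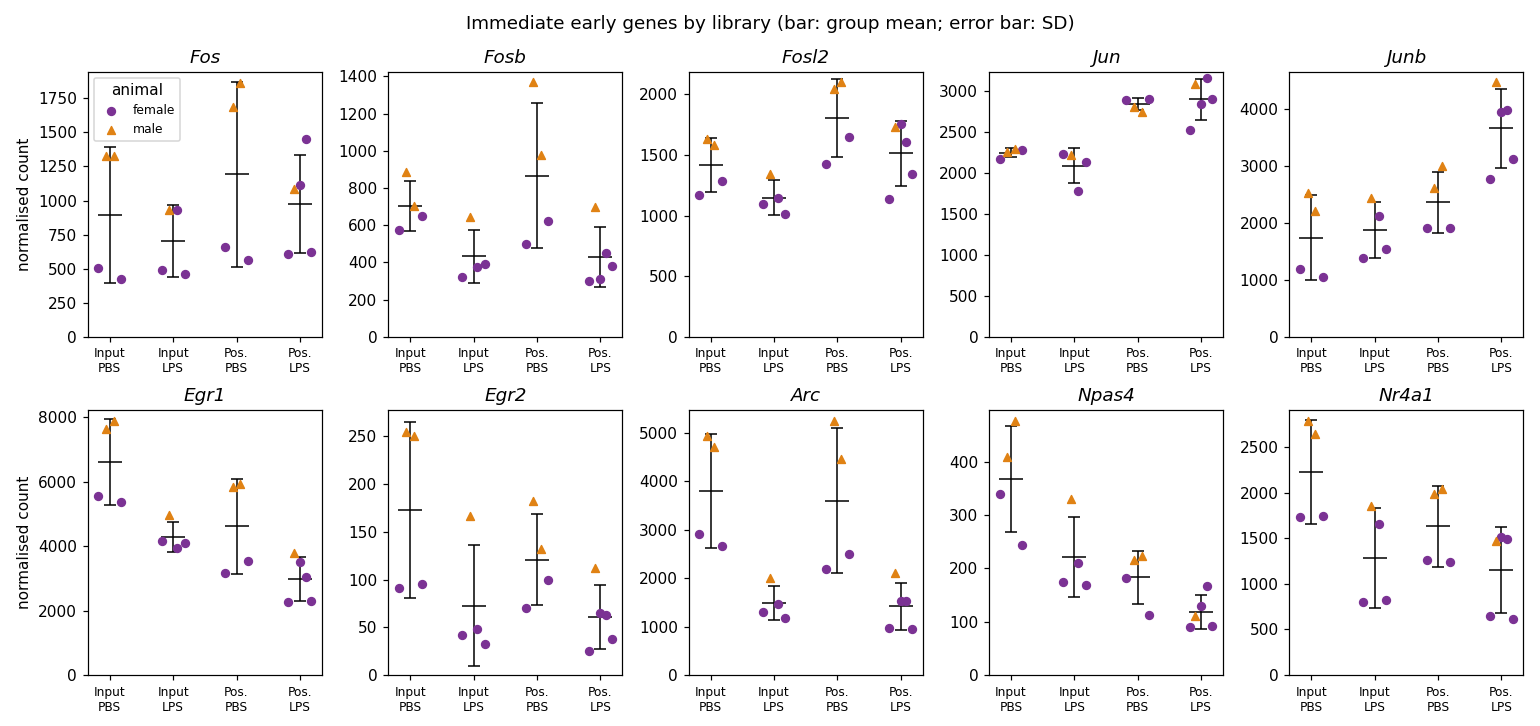
Normalised counts (vertical axes, each from 0) of the 10 immediate early genes in the 17 libraries, grouped by fraction and treatment. Points are libraries of female (circle) and male (triangle) animals, bars are group means and error bars are SD; Arc lay lower in each LPS library than in every PBS library of the same fraction, and the male PBS libraries lay above the female ones for 9 genes in both fractions.

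The first comparison asked how these transcripts differed 24 h after LPS in the positive fraction. Of the 10 members, 3 were lower (Arc, Fosb and Egr1) and 1 was higher (Junb). These 4 calls stood against 33.8% of all genes tested that were called in this comparison, with 14.9% called lower and 19.0% called higher, where a call needs both an adjusted p under 0.05 and an absolute log2 fold change over 0.32. The median log2 fold change of the members was -0.57, against 0.01 over all tested genes. In input only Arc was called, lower, against 12.4% of all genes tested (5.26% called lower), and the median was -0.66 against 0.00.

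Arc encodes a cytoskeleton-associated protein of dendrites that removes glutamate receptors from the synapse. Its normalised counts were 2191, 5247, 4451 and 2502 in Positive PBS (animals 268, 272, 273 and 506) and 967, 2111, 1526, 1537 and 946 in Positive LPS (animals 266, 267, 270, 271 and 507). In input they were 2914, 4921, 4703 and 2653 with PBS and 1308, 1992, 1459 and 1176 with LPS (animals 266, 267, 270 and 507). No LPS library reached the lowest PBS library in either fraction. The log2 fold change of Arc was -1.34 in the positive fraction (SE 0.28, adjusted p 0.000930). In input it was -1.36 (SE 0.30, adjusted p 0.00455). It was called in both fractions under each of 29 alternative settings. Only Arc separated the treatments without overlap in the positive fraction, where 30.1% of all tested genes did so, and Arc and Egr1 did so in input, against 24.2%.

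Egr1 and Egr2 are zinc finger transcription factors that neuronal activity and growth factors induce. In the same order of animals, Egr1 counts were 3157, 5834, 5946 and 3540 in Positive PBS and 2268, 3778, 3524, 3044 and 2312 in Positive LPS, where 3 of 5 LPS libraries lay below all PBS libraries. Egr1 fell by 0.63 there (SE 0.20, adjusted p 0.0155). In input its counts were 5548, 7642, 7874 and 5369 with PBS and 4164, 4972, 3944 and 4097 with LPS, without overlap, but its log2 fold change of -0.62 (SE 0.21) missed the threshold, with an adjusted p of 0.0533. Egr2, the least abundant member, was called in neither fraction, at -0.99 among positive libraries (SE 0.49, adjusted p 0.120) and -1.26 among input libraries (SE 0.51, adjusted p 0.115).

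Among the FOS proteins, which pair with JUN proteins to form the AP-1 factor, Fosb was lower. Its counts were 500, 1369, 976 and 621 in Positive PBS and 302, 700, 310, 449 and 382 in Positive LPS. Of the 5 LPS libraries, 4 lay below all PBS libraries, and that of male animal 267, at 700, lay within the PBS range. Fosb fell by 1.02 in the positive fraction (SE 0.29, adjusted p 0.00871), whereas in input its log2 fold change of -0.70 (SE 0.30, adjusted p 0.138) was not called. Fos counts were 659, 1689, 1861 and 560 in Positive PBS and 611, 1083, 1116, 1453 and 622 in Positive LPS. The PBS libraries of Fos thus fell into a low pair and a high pair. Of the 5 LPS libraries, 3 lay between the pairs and the others within the range of the low pair, and the SD was 56.8% of the mean in Positive PBS and 36.8% in Positive LPS. Neither the fold change among positive libraries, -0.29 (SE 0.41, adjusted p 0.602), nor that among input libraries, -0.35 (SE 0.43, adjusted p 0.651), was called. Fosl2, which encodes the FOS family protein FRA-2, had values of -0.25 (SE 0.14, adjusted p 0.168) and -0.30 (SE 0.15, adjusted p 0.206).

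Junb was the one member called higher after LPS. JUNB is an AP-1 subunit that can restrain JUN at some genes and is induced by cytokines in immune cells. Its counts were 1918, 2620, 2997 and 1913 in Positive PBS and 2765, 4481, 3955, 3986 and 3127 in Positive LPS, where 4 of 5 LPS libraries exceeded every PBS library. Junb rose by 0.63 on the log2 scale (SE 0.24, adjusted p 0.0460), and the call held in 20 of 29 alternatives. In input its counts were 1187, 2531, 2216 and 1042 with PBS and 1387, 2436, 2128 and 1545 with LPS, and the log2 fold change of 0.10 (SE 0.26, adjusted p 0.833) was not called. Jun, the main partner of FOS, was the steadiest member, at 2751 to 2904 in Positive PBS and 2522 to 3166 in Positive LPS, with log2 fold changes of 0.03 (SE 0.08, adjusted p 0.756) there and -0.11 (SE 0.08, adjusted p 0.422) in input.

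Npas4, a transcription factor made almost only in neurons upon calcium entry, was at 181, 215, 223 and 113 counts in Positive PBS and 89.3, 111, 130, 167 and 91.1 in Positive LPS. Its log2 fold change of -0.64 (SE 0.26) narrowly missed the threshold, with an adjusted p of 0.0558, and in input it was -0.73 (SE 0.26, adjusted p 0.0708). Nr4a1 encodes an orphan nuclear receptor that neurons, T cells and macrophages induce. Its counts were 1263, 1990, 2040 and 1236 in Positive PBS, and in Positive LPS they split into 647 and 617 in animals 266 and 507 and 1472, 1511 and 1494 in animals 267, 270 and 271. Neither -0.51 (SE 0.31, adjusted p 0.202), its fold change among positive libraries, nor -0.80 (SE 0.33, adjusted p 0.117), that among input libraries, was called.

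**Figure D2:**
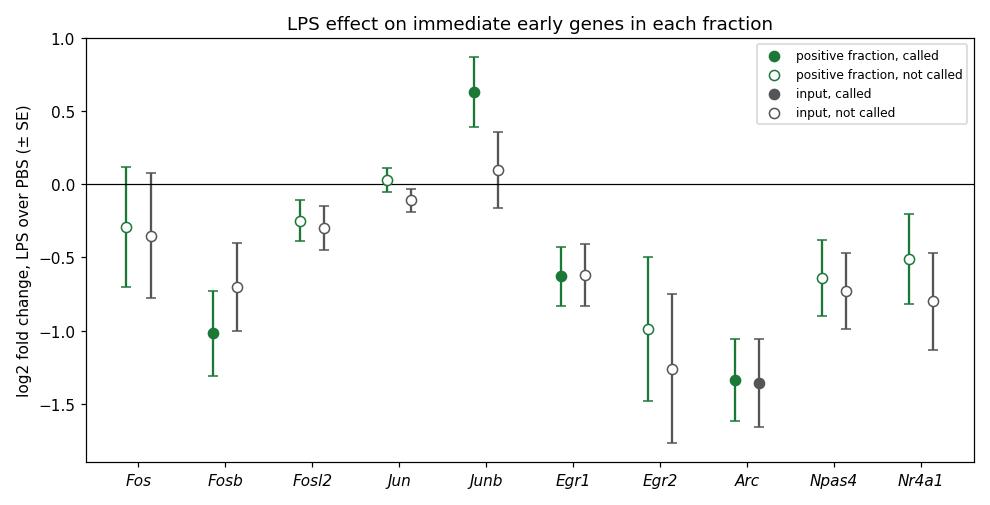
Log2 fold change of LPS over PBS (vertical axis) for each immediate early gene in the positive fraction (green) and in input (grey), with SE as error bars. Filled points passed the test; Arc was called in both fractions, at -1.34 and -1.36, and Fosb, Egr1 and Junb in the positive fraction.

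Input and positive libraries of 1 animal are paired, and a limma voom fit with the animal as a block made more calls in input. It changed both the tool and the block, so limma voom without the block, an alternative chosen after seeing the data, was set beside it. Without the block limma voom called 2 members lower in input, against 12.3% of all genes, Arc (-1.33, adjusted p 0.00449) and Npas4 (-0.75, adjusted p 0.0395). With the replicate block, 5 members were called lower in input, against 13.4% of all genes, namely Arc (-1.31, adjusted p 0.00114), Egr2 (-1.39, adjusted p 0.0321), Nr4a1 (-0.82, adjusted p 0.0388), Npas4 (-0.71, adjusted p 0.0303) and Egr1 (-0.60, adjusted p 0.0344). In the positive fraction the same 4 genes were called with the block as without it, against 33.0% of all genes. The positive fraction count also rested on 1 library, since without Positive PBS animal 272 only 1 member, Arc, was called, against 29.9% of all genes.

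Whether the LPS effect differed between fractions was tested as an interaction. None of the 10 members was called, against 6.88% of all genes tested. None had an unadjusted p under 0.05 in edgeR, DESeq2 or limma with a trend, against 19.6%, 20.3% and 19.6% of all genes. These fits do not pair the libraries of 1 animal. The largest fitted difference, positive minus input, was that of Junb, at 0.53 (SE 0.35, adjusted p 0.452). With the replicate block the Junb difference was 0.44 (SE 0.14, adjusted p 0.0566), and no member was called, against 12.9% of all genes. For Arc the difference was 0.01 (SE 0.41, adjusted p 0.993). A p that misses the threshold does not show that the effects were equal.

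Members differed between animals of 1 group, and in the PBS group this split followed the sex label. Both male PBS animals lay above both female PBS animals for 9 of the 10 members in input, against 30.4% of all tested genes, and for the same 9 in the positive fraction, against 20.7%. Jun was the exception. Fos counts were 504 and 421 in the female and 1325 and 1328 in the male Input PBS libraries, so that the mean was 2.87 times as high in males and 2.91 times in the positive fraction. The ratio was 2.71 for Egr2, 2.13 for Junb, 1.73 for Arc, 1.56 for Nr4a1 and 1.42 for Egr1 in input, whereas it was 1.02 for Jun. The median over all tested genes was 1.01. Among LPS animals the male did not stand above all females for Fos. It was at 929 against 461 to 933 in input and at 1083 against 611 to 1453 in the positive fraction. For Fosb, Junb, Egr1, Egr2 and Arc the LPS male was above all LPS females in both fractions. For Fosl2, Npas4 and Nr4a1 it was so in input alone, and for Jun in neither. The share of all tested genes with the LPS male above all LPS females was not counted, so this describes the members alone. With 2 animals per sex in PBS and 1 LPS male, sex cannot be told apart from other differences between these animals, and its part in the LPS results was examined only by refitting.

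With sex as a covariate Arc (-1.05, adjusted p 2.09e-05), Fosb (-0.74, adjusted p 0.00145), Egr1 (-0.43, adjusted p 0.00910) and Junb (0.85, adjusted p 0.000302) were again called in the positive fraction, against 33.1% of all genes. In input 4 members were then called lower, Arc (-1.12, adjusted p 6.51e-05), Egr2 (-1.00, adjusted p 0.0178), Fosb (-0.55, adjusted p 0.0362) and Egr1 (-0.47, adjusted p 0.0185), against 12.1% of all genes. In the female animals alone, an alternative chosen after seeing the data, 3 members were called in the positive fraction, Arc (-0.92, adjusted p 0.00673), Fosb (-0.64, adjusted p 0.0244) and Junb (0.85, adjusted p 0.00844), against 23.3% of all genes. Egr1 was then at -0.27 (adjusted p 0.248). Fos turned sign, to 0.23 in the positive fraction with sex as a covariate and to 0.64 (adjusted p 0.250) in females, and was called in neither. In females 2 members, Arc (-1.09, adjusted p 0.0118) and Fosb (-0.76, adjusted p 0.0424), were called in input, against 4.94% of all genes. The male animals gave 2 PBS and 1 LPS library per fraction, and Arc was 5247 and 4451 against 2111 in the positive fraction and 4921 and 4703 against 1992 in input.

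The summed neuron markers moved with treatment as well. Positive libraries averaged 219715 ± 12076 after PBS (SD, n = 4) and 183346 ± 22651 after LPS (n = 5), and input libraries 193873 ± 3954 and 178895 ± 8218 (n = 4 each). Divided by the neuron sum of the same library, Arc averaged 16.2 counts per 1000 neuron marker counts in Positive PBS, 7.71 in Positive LPS, 19.6 in Input PBS and 8.33 in Input LPS. On that scale the mean log2 difference of LPS from PBS was -1.05 and -1.21 for Arc, -0.34 and -0.49 for Egr1 and -0.71 and -0.62 for Fosb, with the positive libraries given before the input libraries. On this scale the treatments no longer separated for Arc in the positive fraction or for Egr1 in input, while Arc in input had no overlap. The same difference was 0.91 for Junb in the positive fraction, where its groups did not overlap on this scale, and 0.10 for Fos. Before the division these were 0.64 and -0.17. The division adds the same amount to the log2 difference of every gene in a fraction, and Jun went from 0.03 to 0.30. The share of all tested genes that do not overlap on this scale was not counted. These are descriptions of the libraries, and the part of the neuron share in the results was not tested.

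The second comparison set the positive fraction against input. In PBS animals 3 members were called, against 39.8% of all genes tested, with Jun higher (log2 difference 0.33, SE 0.08, adjusted p 0.00238) and Egr1 (-0.52, SE 0.21, adjusted p 0.0488) and Npas4 (-1.00, SE 0.27, adjusted p 0.00491) lower. In LPS animals 5 members were called, against 53.4% of all genes tested. Junb (0.97, SE 0.25, adjusted p 0.00253), Jun (0.47, SE 0.08, adjusted p 3.92e-05) and Fosl2 (0.40, SE 0.15, adjusted p 0.0244) were higher, and Npas4 (-0.90, SE 0.25, adjusted p 0.00510) and Egr1 (-0.52, SE 0.20, adjusted p 0.0272) lower. The call of Egr1 in PBS animals held in 15 of 28 alternatives and was lost with TMM scaling (adjusted p 0.0502), and that of Jun held in 24, falling to 0.21 with all 18 libraries (adjusted p 0.0854) and with the deposited log2 values (adjusted p 0.0534). In LPS animals the call of Egr1 held in 24 of 28 and that of Fosl2 in 21. Arc was near input in both, at -0.08 (SE 0.29, adjusted p 0.845) in PBS and -0.06 (SE 0.28, adjusted p 0.855) in LPS animals. For comparison, the median log2 difference of the 8 microglia markers was 4.22 in PBS animals, and that of the 8 neuron markers was 0.27.

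Within animals the ratios of several members had a small spread. The log2 ratio of positive over input was 0.41 ± 0.06 for Fos (SD, n = 4 PBS animals), 0.34 ± 0.05 for Fosl2, 0.33 ± 0.06 for Jun, -0.46 ± 0.05 for Nr4a1 and -1.00 ± 0.11 for Npas4. Fos was higher in the positive fraction in 8 of 8 animals, from 0.35 to 0.49 with PBS and from 0.22 to 0.43 with LPS, even though its level varied 3.16-fold among Input PBS libraries. Fosl2, Jun and Junb were also higher in each of the 8 animals, and Egr1, Npas4 and Nr4a1 lower in each. The share of all tested genes with 1 direction in all 8 animals was not counted, so this describes the members alone. The ratio was only 0.05 for Junb in PBS animal 272 and for Fosl2 in LPS animal 266. Scaling over all 18 libraries shifted the median of all genes by more, -0.13 in PBS and -0.10 in LPS animals. The replicate block raised the calls in PBS animals to 7, against 45.0% of all genes, adding Fos (0.41, adjusted p 0.000158), Fosl2 (0.35, adjusted p 0.00175), Junb (0.51, adjusted p 0.000728) and Nr4a1 (-0.46, adjusted p 2.99e-05). In LPS animals the block left 5 called, against 55.4% of all genes, and Fos (0.31, adjusted p 0.00118) and Nr4a1 (-0.29, adjusted p 0.00101) passed the p threshold but not the fold threshold. Junb had a ratio of 0.95 ± 0.07 in the LPS animals (n = 4) and of 0.52 ± 0.36 in the PBS animals. Animal 271, with its positive library alone, adds nothing to a within-animal ratio.

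**Figure D3:**
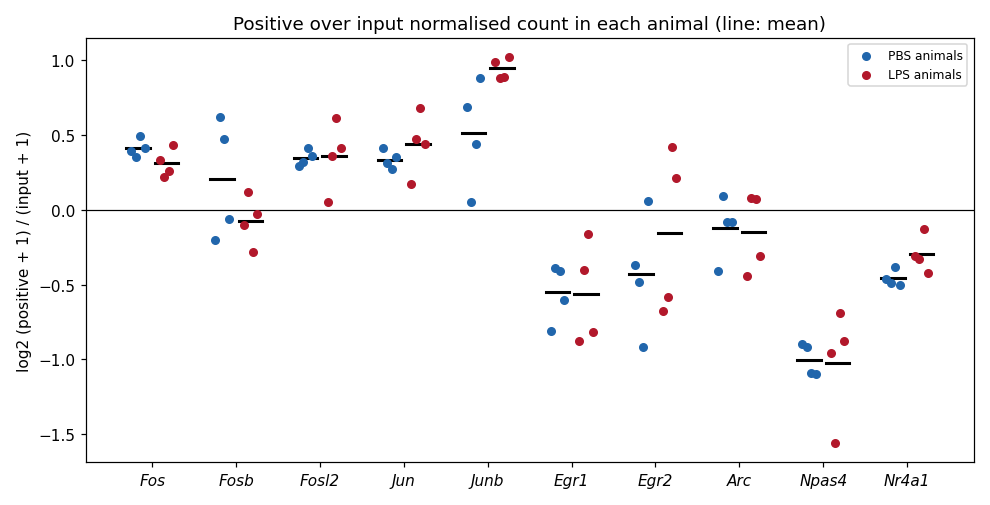
Log2 ratio of the normalised count plus 1 in the positive fraction over that in input of the same animal (vertical axis), for each immediate early gene in 4 PBS (blue) and 4 LPS (red) animals, with the mean as a line. Fos, Fosl2, Jun and Junb lie above 0 and Egr1, Npas4 and Nr4a1 below 0 in all 8 animals.

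Likeness among the members was described as Pearson's r of log2 normalised counts after each group's mean was removed, over 17 libraries that include the paired fractions of 8 animals, so that the points share animals. Arc and Egr1 were the most alike (r = 0.96), followed by Fos with Junb and Fosl2 with Egr1 (0.93 each). The median r with the other members was 0.86 for Fos, Fosl2 and Arc, 0.84 for Junb, 0.83 for Nr4a1, 0.81 for Egr2, 0.80 for Egr1, 0.73 for Npas4 and 0.66 for Fosb. Jun stood apart, with values from 0.02 with Fos to 0.39 with Egr2. Junb thus varied between animals along with Fos, Arc and Egr2 although its fitted LPS difference in the positive fraction had the opposite sign from theirs. For comparison, the median r of a member with 13645 other genes ran from 0.000120 (Fos) to 0.0729 (Jun). Removing group means leaves in place the split between male and female PBS animals, which all members but Jun shared. The part of that split in these values was not tested.

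**Figure D4:**
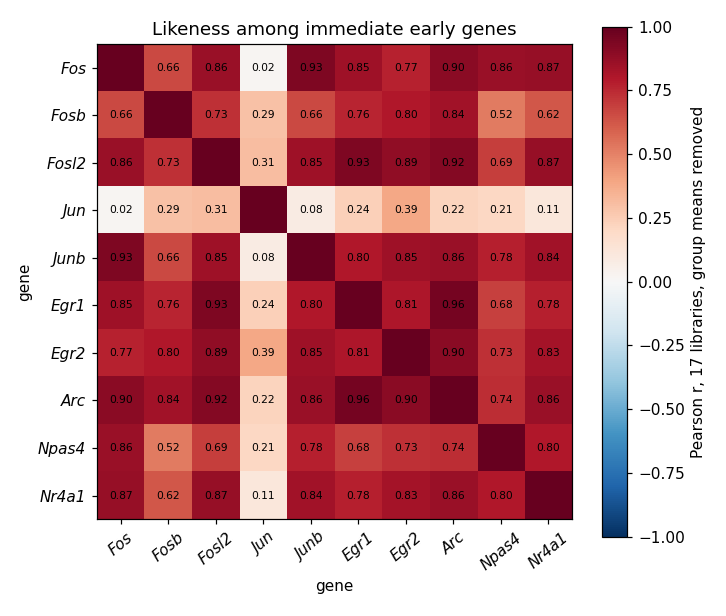
Pearson's r (colour and printed value) between each pair of immediate early genes (both axes) over 17 libraries, with group means removed from log2 normalised counts. All pairs among the 9 genes other than Jun lie between 0.52 and 0.96, and those with Jun between 0.02 and 0.39.

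Among 13645 other tested genes that averaged 50 normalised counts or more, the 3 most like each member were taken. Egr1 was most like Egr4 (r = 0.93), of the same family, then Palm and Lynx1 (0.92 each). Nr4a1 was most like Bmx and Maff (0.93 each) and Btg2 (0.92), the last an antiproliferative primary response gene. Npas4 was nearest to Ier2 and Nrbp1 (0.87 each) and Neurl1a (0.86). For Fos they were Arl6ip4 (0.93), Gpatch4 (0.92) and Sst (0.91), which encodes the peptide somatostatin, and for Junb Prr24 (0.95), Arl6ip4 and Aurkaip1 (0.94 each). Arc was nearest to Sbds and Gpatch4 (0.92 each) and to Cldn5 (0.91), a tight junction gene of the endothelium. Fosl2 was nearest to Celf4 (0.96), Napa (0.95) and Stmn4 (0.94), and Fosb to Nol7 (0.88), Myg1 (0.87) and Cldn5 (0.86). The genes nearest to Egr2 were Ddx3y and Bloc1s1 (0.90 each) and Chmp3 (0.88). Ddx3y is on the Y chromosome, so that its pattern follows the sex label. For Jun they were C330007P06Rik (0.87), Me1 (0.86) and Plekhm3 (0.85). Arl6ip4 was near to both Fos and Junb, Gpatch4 to both Fos and Arc, and Cldn5 to both Arc and Fosb.

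Related genes were then read from the same fit. Their lists were chosen with earlier results of these data known, so the shares of all genes set beside them are descriptions and not tests. Of 12 activity-regulated effectors, which neuronal firing induces along with or after the immediate early genes, 9 were called lower and none higher in the positive fraction, with a median of -0.61, against 14.9% of all genes called lower. In input 6 were lower, with a median of -0.39, against 5.26%. In the positive fraction Inhba, an activin subunit, fell by 1.23 (SE 0.22, adjusted p 0.000225) and the neurotrophin Bdnf by 0.91 (SE 0.13, adjusted p 3.29e-05). Vgf, a neuropeptide precursor, fell by 0.84 (SE 0.15, adjusted p 0.000282) and Rgs2, a regulator of G protein signalling, by 0.81 (SE 0.13, adjusted p 9.51e-05). In input the 4 largest changes were those of Inhba (-0.98, SE 0.23, adjusted p 0.00792), Bdnf (-0.81, SE 0.14, adjusted p 0.000565), the pentraxin Nptx2 (-0.80, SE 0.14, adjusted p 0.000582) and Vgf (-0.66, SE 0.16, adjusted p 0.0104).

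The other EGR and NR4A factors with the NAB corepressors numbered 6, of which 3 were called lower in the positive fraction, against 14.9% of all genes, and 2 in input, against 5.26%. Those of the positive fraction were Egr3 (-0.98, SE 0.18, adjusted p 0.000371), Nr4a2 (-0.88, SE 0.18, adjusted p 0.000680) and Nr4a3 (-0.84, SE 0.24, adjusted p 0.00904). Those of input were Nr4a3 (-0.76, SE 0.25, adjusted p 0.0489) and Egr3 (-0.75, SE 0.19, adjusted p 0.0135). Of 16 upstream activators, 2 were called lower in the positive fraction and 1 in input, shares near those of all genes (14.9% and 5.26%). Crem, a CREB relative with activator and repressor forms, fell by 0.87 in the positive fraction (SE 0.15, adjusted p 0.000136) and by 0.56 in input (SE 0.15, adjusted p 0.0194), and Mef2c, a calcium-responsive factor, fell by 0.33 in the positive fraction (SE 0.11, adjusted p 0.0194). The other 14 were called in neither. Among them Srf passed the p threshold but not the fold threshold in input (-0.29, SE 0.08, adjusted p 0.0180). In the positive fraction so did Creb1 (-0.28, SE 0.09, adjusted p 0.0225) and Crtc1 (-0.31, SE 0.09, adjusted p 0.0102).

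Other primary response genes, many of which inflammatory signals induce, had a median of the opposite sign. In the positive fraction 10 of 22 such genes were called higher and none lower, with a median of 0.49, whereas 19.0% of all genes were called higher. In input 6 were higher and 1 lower, with a median of 0.33, against 7.16% of all genes higher and 5.26% lower. In the positive fraction Nfkbiz, a nuclear IκB protein, rose by 3.90 (SE 0.31, adjusted p 2.59e-08), Dusp1, a phosphatase of MAP kinases, by 1.51 (SE 0.29, adjusted p 0.000425), Ier2 by 1.42 (SE 0.20, adjusted p 1.88e-05) and Ier3 by 1.14 (SE 0.15, adjusted p 1.02e-05). In input the largest rise was that of Zfp36, which encodes an mRNA decay factor (1.81, SE 0.20, adjusted p 7.03e-06), ahead of Nfkbiz (1.00, SE 0.28, adjusted p 0.0244), Ier3 (0.99, SE 0.16, adjusted p 0.000221) and the endothelial factor Klf2 (0.69, SE 0.20, adjusted p 0.0286). The LPS effect differed between fractions for 3 of the 22, against 6.88% of all genes, with a larger rise in the positive libraries for Nfkbiz (difference 2.91, adjusted p 0.000251), Dusp1 (1.40, adjusted p 0.0452) and Ier2 (1.26, adjusted p 0.0101). Of 7 tested AP-1 factors outside the member list, 2 were called higher in the positive fraction, against 19.0% of all genes, Batf (2.78, SE 0.29, adjusted p 8.36e-07) and Mafk (0.49, SE 0.17, adjusted p 0.0308). In input 3 were, against 7.16%, Batf (2.37, SE 0.42, adjusted p 0.000686), Maff (1.56, SE 0.24, adjusted p 0.000177) and Mafk (0.90, SE 0.18, adjusted p 0.00213). The LPS effect differed between fractions for 1 of the 7, Maff, with a smaller rise in the positive libraries (difference -1.28, SE 0.32, adjusted p 0.0202). Its log2 fold change there was 0.28 (SE 0.22, adjusted p 0.324).

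**Figure D5:**
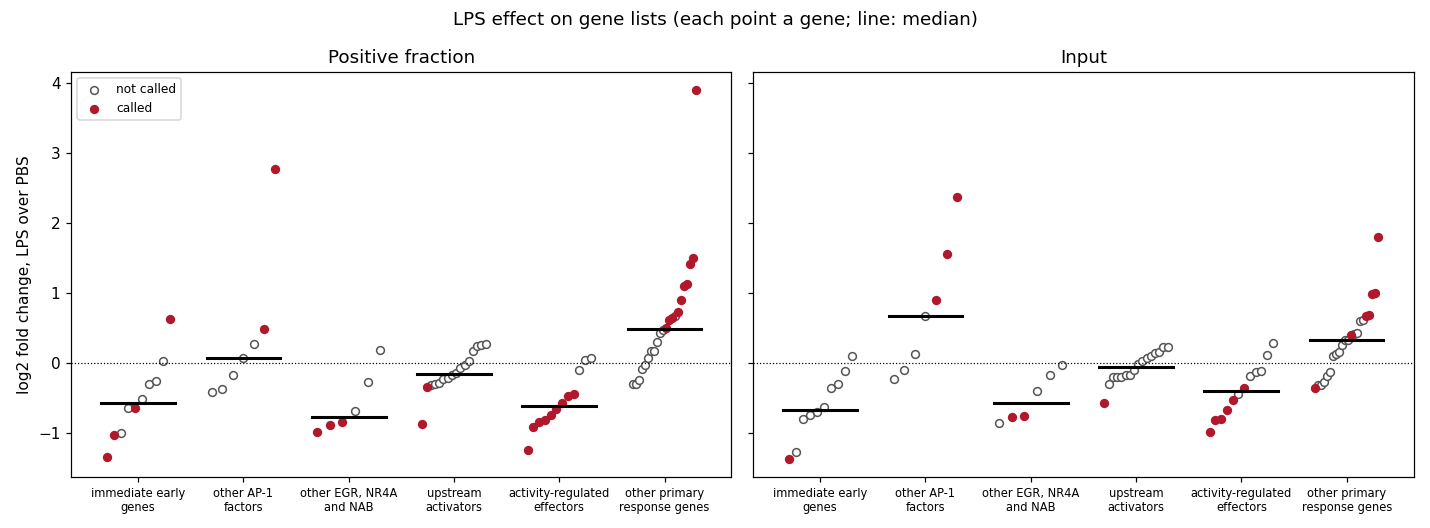
Log2 fold change of LPS over PBS (vertical axis) for each tested gene of 6 lists, in the positive fraction (left) and in input (right), with the median as a line and called genes filled. The immediate early gene and activity-regulated lists have medians of -0.57 and -0.61 in the positive fraction, and the other primary response genes a median of 0.49.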

How the data were processed

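Reads were trimmed by the authors and mapped directionally to Mm10 in Strand NGS, and the deposited table holds, for each RefSeq gene, estimated counts and log2 values that were scaled by DESeq size factors. The estimated counts were rounded and scaled by median-of-ratios size factors, which ranged from 0.766 to 1.32 over 17 libraries. Genes with over 20 normalised counts in every library of at least 1 group (14803) were fitted with edgeR 4.0.16 (quasi-likelihood, 1 mean per group, 13 residual degrees of freedom) in R 4.3.3. Calls needed a Benjamini-Hochberg adjusted p under 0.05, over all genes tested, and a fold over 1.25, as in the study's methods. Fold changes are log2, with SE. Scripts were tested on simulated data.

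Libraries of 1 animal pair by label, and their deviations from the group means correlated in each of 8 animals (r from 0.16 to 0.52). The block was fixed in edgeR for fraction contrasts and random (limma 3.58.1, voom, correlation 0.45) for LPS effects. Alternatives also covered DESeq2 1.42.0, limma with a trend, limma voom, TMM, no filter, all 18 libraries, the deposited log2 values, sex and left-out animals or libraries. Likeness used log2(normalised count + 1). No 2 libraries of a group agreed within sampling noise (lowest chi-square per degree of freedom 5.68).

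Members and lists were chosen with earlier results of these data known. Named genes were the 10 members, up to 4 called genes per related list and fraction by size of change, and the 3 genes most like each member, all averaging 50 normalised counts or more.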

Additional observations from a re-analysis of the deposited data

Results flagged for a closer look

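Egr2 in the Input LPS library of male animal 267 stood apart from the other 3 libraries of its group, at 167 normalised counts against 42.0, 48.4 and 32.9. Its gap to the nearest library was 0.884 of the group's range. The positive library of the same animal, at 112, was also the highest of its group. Over the 10 members and 4 groups 40 such checks were made, and chance marks about 5% of groups. The cause was not tested.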

How the results depend on the processing

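Of 1410 values of single members under the alternatives, 1254 kept their direction and their side of the threshold, 42 lost and 42 gained a call and 72 changed sign, and none of the 72 was called. The number of members called for LPS in the positive fraction was 1 to 5 when each library was left out, against 29.9% to 34.5% of all genes. In input it was 1 to 3 on leaving out libraries, against 9.80% to 13.4%. With the share of all genes in brackets, it was 3 with DESeq2 (14.4%), 2 with all 18 libraries (11.5%) and 4 with sex as a covariate (12.1%). It was 3 with only the libraries compared (15.0%), 2 with females only (4.94%) or with limma voom (12.3%) and 5 with the replicate block (13.4%). In positive against input it was 5 (sex, 41.0%) and 7 (replicate block, 45.0%) in PBS animals and 3 (47.3%) in LPS animals without animals 506 and 507. The block changed no other count by over 1.5 times. The difference between fractions had 0 calls in each setting, against 0.521% to 12.9% of all genes. TMM shifted the median of all genes by at most 0.02, whereas all 18 libraries and the deposited log2 values shifted positive against input by -0.13 in PBS and by -0.10 and -0.11 in LPS animals.

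Sign changes for LPS were those of Fos (0.23 positive, 0.07 input with sex; 0.64 and 0.43 in females; -0.52 to 0.01 in the positive fraction on leaving out libraries), Jun (-0.02, positive, females) and Junb (input, -0.08 to 0.34 on leaving out libraries). For positive against input in PBS they were Fosb (-0.13 in females; -0.01 to 0.49 on leaving out libraries) and Arc (-0.32 to 0.10). In LPS animals they were Fosb (0.02 with sex; -0.26 to 0.24), Egr2 (0.23 in females; -0.58 to 0.57), Arc (-0.25 to 0.11) and Nr4a1 (-0.33 to 0.07). For the difference between fractions they were Fos (-0.10, Arc -0.03 and Npas4 -0.02 with the replicate block), Fosb (0.12, females) and Egr1 (0.00 with limma and TMM, 0.02 with all 18 libraries, 0.03 with the deposited values and without 506 and 507, 0.04 with sex, 0.16 in females). Leaving out libraries gave Fos -0.19 to 0.36, Fosl2 -0.05 to 0.14, Egr1 -0.15 to 0.14, Egr2 -0.06 to 1.08, Arc -0.17 to 0.25 and Npas4 -0.07 to 0.35. The causes were not tested.

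Groups of 4 or 5 animals limit the precision, and Egr2, at 25.7 to 255 normalised counts, had the largest standard errors.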

Other observations

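The input library of LPS animal 271, left out above, held 2 counts of Junb and none of the other 9 members.

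Many immediate early transcripts are known to be short-lived through AU-rich elements. The nonamer TTATTTATT was found in the longest transcript of 2 of the 10 members, Fos and Fosl2, against 8.38% of tested genes with a model. This is a search of letters on whole transcripts, and decay was not measured.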
